A study of Mus musculus with 23 samples.

Results

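The genes described here encode 40 plasma proteins of blood coagulation and complement, 20 of each system. They were the rows of the count tables that carry 1 of 40 listed gene symbols, out of 24062 genes. All 40 had enough reads to be tested. Coagulation is a cascade of proteases that ends when thrombin turns fibrinogen into fibrin, and it is held in check by anticoagulant serpins and by the protein C pathway, while plasmin dissolves the clot. Complement is a second protease cascade, started by C1 on antibodies, by lectins on sugars or by spontaneous turnover of C3, and it ends in a pore built from C5 to C9. Hepatocytes secrete most of these proteins into the blood. C1q, which macrophages such as the Kupffer cells of the liver make, and factor VIII, which liver endothelium makes, are the usual exceptions.

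The RNA came from livers of 23 mice of mixed B6/129 strain, wild type (WT) or knockout (KO) for Ehhadh, the peroxisomal L-bifunctional protein of fatty acid beta-oxidation. Mice were given saline or L-AC, an agent that the labels name by this abbreviation alone. L-aminocarnitine, an inhibitor of the mitochondrial enzyme carnitine palmitoyltransferase 2, is known by the same abbreviation. Saline went to 7 WT animals aged 29 to 45 weeks and to 5 KO animals aged 31 to 44 weeks. L-AC went to 6 WT animals aged 28 to 44 weeks and to 5 KO animals aged 28 to 38 weeks. The labels used here give neither the dose and duration of L-AC nor the design of the knockout allele.

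Libraries held 24521896 to 48095959 counted reads. Values are CPM, read counts divided by the size of the library, in the usual unit, after scaling of the libraries to one another by TMM. A gene was called changed at a Benjamini-Hochberg adjusted p under 0.05 in edgeR's quasi-likelihood test over 14196 genes, and fold changes are on the log2 scale with their standard error (SE). Ehhadh itself had 634.8 to 1635 CPM in WT and 90.92 to 252.9 in KO livers on saline, and 10260 to 14650 in WT and 1421 to 2144 in KO livers on L-AC, so that no KO library overlapped the WT libraries of the same treatment. In these bulk samples, fewer cells of a type and less RNA per cell cannot be told apart. The summed CPM of 10 hepatocyte markers was 68310 to 79760 on saline and 53580 to 62140 on L-AC in WT livers. In KO livers the sum was 72120 to 82450 on saline and 39840 to 64170 on L-AC, so it was lower under L-AC in both. Of these 10 markers, 3 were called lower and 2 higher in WT livers, where 26.7% of all genes were lower and 26.6% higher. In KO livers 5 were lower and 0 higher, beside 23.6% and 25.2% of all genes. The group median of their mean log2 CPM was 11.8 on saline and 11.7 on L-AC in WT livers, and 11.9 and 11.5 in KO livers. The markers Alb, Ttr and Apoa1 are also counted below among other plasma proteins of the liver. The part of these markers in the results below was not tested.

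In WT livers on saline the 40 messages made up a median of 3.5% of all counted reads (range 3.28 to 5.22%). On a per-length scale, as TPM, counts divided by exon length and scaled to the same total in each library, the fibrinogen chains Fgb (median 3624 TPM) and Fgg (3164 TPM) were the most abundant of the 40. They were followed by C3 (2854 TPM), the central component of complement, and by the third fibrinogen chain Fga (1869 TPM). Prothrombin F2 (1725 TPM), plasminogen Plg (1625 TPM) and antithrombin Serpinc1 (1525 TPM) came next. At the low end were the C1q chains, at medians of 19.7 to 24.06 TPM, and factor VIII, F8, at 1.985 TPM. The share of reads taken by the 40 genes was 3.45 to 3.90% (median 3.67%) in KO livers given saline. Under L-AC it was 2.30 to 3.33% (median 2.71%) for WT and 2.12 to 3.53% (median 2.74%) for KO animals.

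L-AC lowered most of the 40 messages in both genotypes. In WT livers 33 of 40 fell, 2 rose (Pros1, protein S, and Masp1, a lectin pathway protease) and 5 were not called, where 53.3% of all genes were called, 26.7% lower and 26.6% higher. In KO livers 28 fell, 1 rose (Pros1) and 11 were not called, where 48.8% of all genes were called, 23.6% lower and 25.2% higher. The median fold change of the 40 was -0.69 in WT and -0.75 in KO livers, beside -0.01 for all genes tested in each. The 20 coagulation genes had medians of -0.66 and -0.83 and the 20 complement genes -0.70 and -0.75, so the systems lay close to each other.

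**Figure D1:**
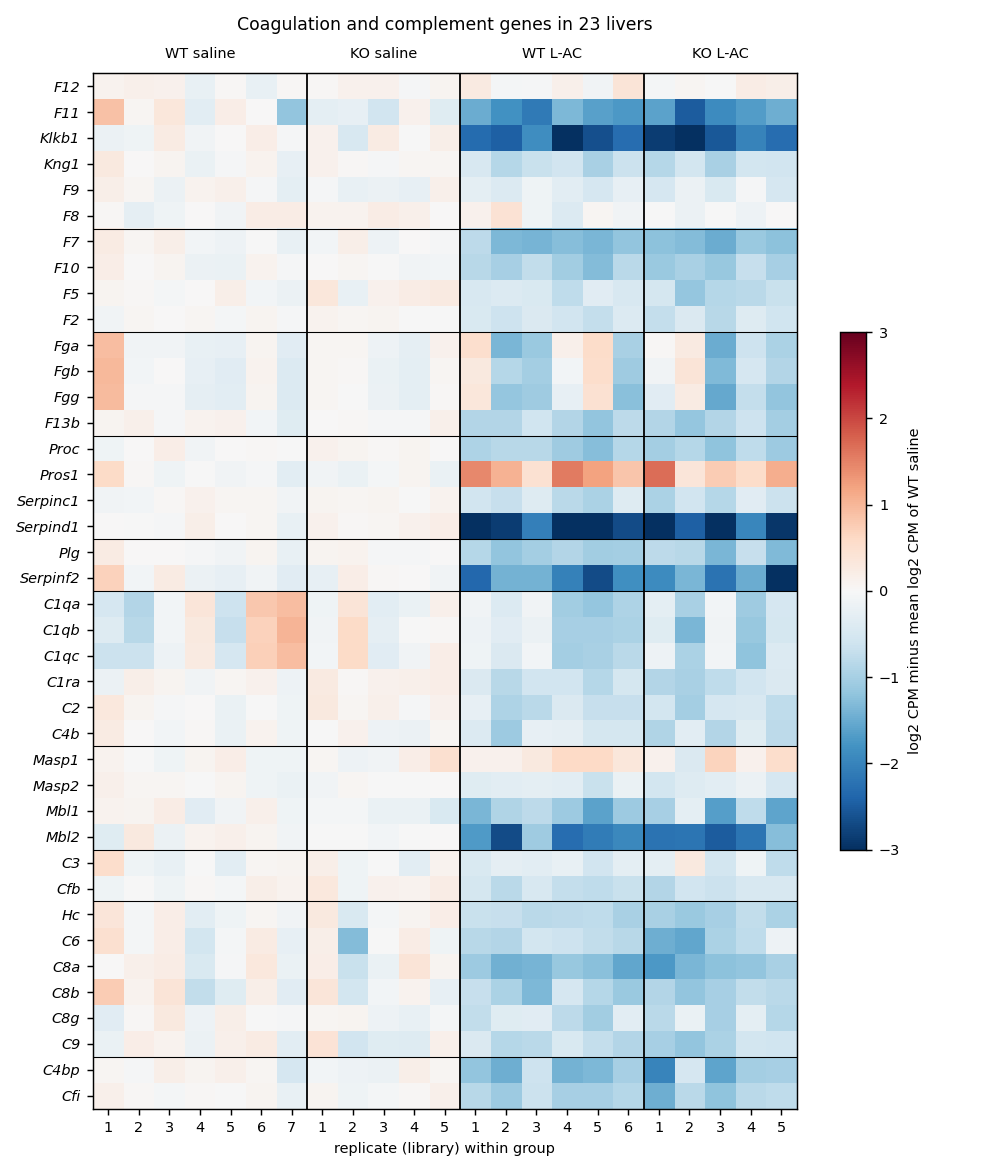
Level of each of the 40 genes (rows, by role, coagulation above and complement below) in each of the 23 livers (columns, by group), as log2 CPM minus the mean log2 CPM of the 7 WT saline livers, where blue is lower and red higher, and colours saturate at -3 and 3. Most rows turn blue in the 11 L-AC livers, while Pros1 turns red and the fibrinogen rows Fga, Fgb and Fgg are mixed.

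The separation between livers was often complete. In WT mice 24 of the 40 genes were lower in every L-AC liver than in every saline liver, a pattern seen in 12.1% of all genes tested, and in KO mice the number was also 24, beside 15.5% of all genes. It held in both genotypes for 22 of the 40, beside 9.11% of all genes. Falls of more than 2-fold were called for 9 members in WT and 10 in KO livers, 8 of them in both, where 7.92% and 8.3% of all genes fell that far. Direction was the same in both genotypes for 39 of 40 genes (89.2% of all genes), and the saline and L-AC livers of WT and KO mice are separate animals.

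**Figure D2:**
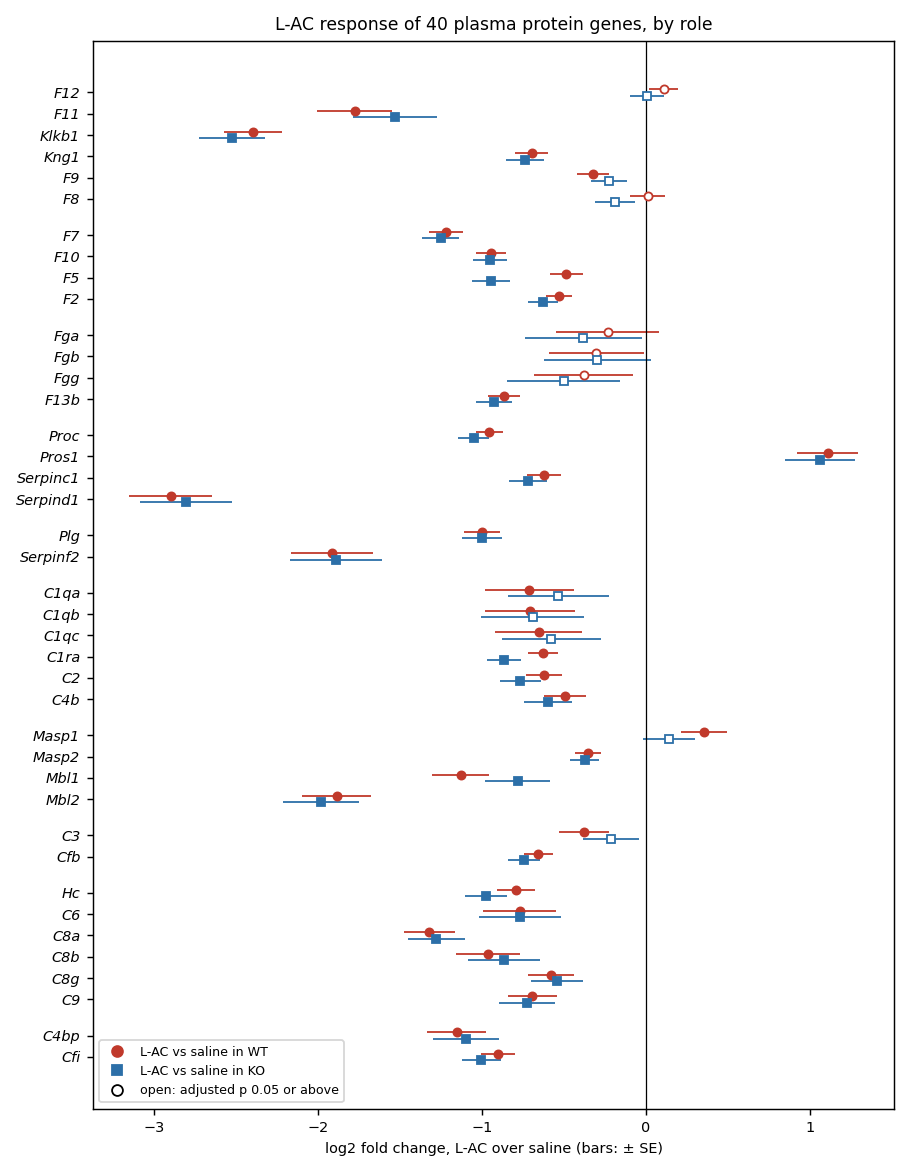
Log2 fold change of L-AC over saline for each gene, in WT (red circles) and KO (blue squares) livers, with bars of ± SE, grouped by role from contact factors at the top to complement inhibitors at the bottom. Filled symbols are called and open symbols are not, and the range runs from Serpind1 at -2.90 in WT livers to Pros1 at 1.11.

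Among the contact and intrinsic clotting factors, which start clotting on negatively charged surfaces, 4 of 6 fell in WT and 3 of 6 in KO livers. The steepest fall was that of Klkb1, plasma prekallikrein, the protease precursor that factor XII activates. Its level was 122.3 to 164.4 CPM (median 134.0) in WT saline livers and 16.28 to 37.62 CPM (median 26.5) in WT L-AC livers. The 5 KO saline livers had 151.2, 98.29, 162.0, 136.1 and 155.0 CPM and the 5 KO L-AC livers 19.03, 16.51, 23.79, 34.07 and 28.4 CPM. Every L-AC liver was thus far below every saline liver. Klkb1 fell 5.27-fold (SE of the log2 value 0.18, adjusted p = 5.36e-10) in WT and 5.77-fold (SE 0.20, adjusted p = 2.21e-09) in KO livers.

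F11, factor XI, is the next gene on chromosome 8, 7.42 kb from Klkb1, and it fell too. It ran from 19.72 to 82.62 CPM (median 46.81) in WT saline and from 10.3 to 17.68 CPM (median 13.98) in WT L-AC livers. The KO livers had 36.62, 37.95, 30.3, 49.47 and 35.12 CPM on saline and 14.87, 8.009, 12.12, 14.16 and 16.39 CPM on L-AC. The groups did not overlap, although WT saline replicate 7 at 19.72 CPM came close to the L-AC range. The fall of F11 was 3.43-fold in WT (adjusted p = 1.25e-06) and 2.89-fold in KO livers (adjusted p = 4.13e-05). Kng1, kininogen, the cofactor of the contact system, fell by 0.70 and 0.74 (adjusted p = 5.95e-06 and 1.66e-05), though reads of its close copy Kng2 could not be kept apart with certainty.

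The other genes of this branch changed less or were not called. F12, factor XII, which starts the contact pathway, had 487.4 to 626.0 CPM in WT saline and 527.1 to 740.4 CPM in WT L-AC livers, and its change was 0.11 in WT and 0.01 in KO livers (adjusted p = 0.315 and 0.961). The interval of 1.96 SE about these values ran from -0.07 to 0.28 in WT livers. F9, factor IX, fell by 0.32 in WT livers (adjusted p = 0.00819), with saline livers at 172.6 to 240.6 CPM overlapping L-AC livers at 150.7 to 194.2 CPM. In KO livers it was lower by 1.17-fold and not called (adjusted p = 0.0982), though without KO L-AC replicate 4 it was called (adjusted p = 0.0291).

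F8, factor VIII, the cofactor of factor IX, differs from the rest in its cell of origin. WT livers had 6.888 to 9.682 CPM on saline and 6.235 to 11.12 CPM on L-AC, and KO livers 8.328 to 9.632 CPM on saline and 7.253 to 8.335 CPM on L-AC. The changes of 0.01 and -0.19 were not called (adjusted p = 0.942 and 0.205). Of 11 markers of sinusoidal endothelium, 2 were called lower (18.2%, beside 26.7% of all genes) and 0 higher (beside 26.6%) in WT livers. In KO livers 2 were lower (18.2%, beside 23.6%) and 0 higher (beside 25.2%), and 1 was lower in both. In WT livers the markers summed to 225.8 to 415.4 CPM on saline and 266.8 to 332.8 CPM on L-AC. In KO livers they summed to 284.9 to 355.3 CPM on saline and 267.5 to 335.1 CPM on L-AC.

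All 4 extrinsic and common pathway factors fell in both genotypes. F7, factor VII, the protease that tissue factor activates, was at 76.65 to 106.4 CPM (median 89.33) in WT saline and 33.86 to 52.12 CPM (median 36.02) in WT L-AC livers. In KO livers it was at 84.27, 101.6, 80.1, 90.63 and 87.14 CPM on saline and 38.37, 36.15, 32.07, 41.22 and 38.37 CPM on L-AC. No L-AC liver reached a saline liver, and F7 fell 2.33-fold in WT and 2.38-fold in KO livers (adjusted p = 2.32e-09 and 1.37e-08). F10, factor X, where both branches of clotting meet, begins 1.5 kb beyond F7 on chromosome 8. It fell by 0.95 in each genotype (adjusted p = 2.87e-08 and 2.03e-07), from 286.9 to 380.7 CPM down to 135.1 to 199.3 CPM in WT livers.

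Thrombin's precursor F2 fell by 0.53 and 0.63 (adjusted p = 1.06e-05 and 7.44e-06), again with no overlap. F5, factor V, the cofactor of factor X, had the smallest unadjusted p of the 40 for a difference in response between genotypes. It shares 262 exon bases with the antisense gene Gm16548, which had a median of 412 reads a library beside 18025 for F5. WT livers had 512.0 to 653.7 CPM (median 584.5) on saline and 342.9 to 455.5 CPM (median 418.9) on L-AC. KO livers had 727.9, 493.0, 633.4, 673.1 and 699.6 CPM on saline and 402.4, 260.6, 317.9, 328.5 and 365.5 CPM on L-AC. F5 fell by 0.49 in WT and by 0.95 in KO livers (adjusted p = 0.000341 and 7.17e-07), and groups did not overlap in either. The difference between these responses was -0.46 (SE 0.15, unadjusted p = 0.00585), which did not pass adjustment (adjusted p = 1.0).

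The fibrinogen chains were not called in either genotype and varied widely between the livers given L-AC. Fga, Fgb and Fgg lie side by side on chromosome 3 and are the most abundant coagulation messages. Their promoters are shown because the chains moved together from liver to liver. The sequences are the 250 bases upstream of the start of the RefSeq entry (GRCm38.p6), 5′ to 3′ on the gene's strand, for Fga at chr3:83025903-83026152 (plus strand), Fgb at chr3:83049864-83050113 (minus strand) and Fgg at chr3:83007474-83007723 (plus strand). Capitals mark matches on either strand to TTGCNCAA, a C/EBP motif. They also mark TTCCNGGAA, a STAT motif, and GTTAATNAT, the core of the motif of HNF1, a hepatocyte factor.
Fga: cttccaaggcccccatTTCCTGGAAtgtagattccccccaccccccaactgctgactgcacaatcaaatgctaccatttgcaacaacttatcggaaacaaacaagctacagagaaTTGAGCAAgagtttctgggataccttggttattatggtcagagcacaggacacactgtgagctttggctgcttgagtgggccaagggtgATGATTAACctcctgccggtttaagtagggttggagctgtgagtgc
Fgb: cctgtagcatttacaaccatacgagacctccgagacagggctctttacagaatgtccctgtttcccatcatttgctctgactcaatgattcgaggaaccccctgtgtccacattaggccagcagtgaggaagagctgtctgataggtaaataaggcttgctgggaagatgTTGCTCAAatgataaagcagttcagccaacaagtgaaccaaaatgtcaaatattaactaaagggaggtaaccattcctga
Fgg: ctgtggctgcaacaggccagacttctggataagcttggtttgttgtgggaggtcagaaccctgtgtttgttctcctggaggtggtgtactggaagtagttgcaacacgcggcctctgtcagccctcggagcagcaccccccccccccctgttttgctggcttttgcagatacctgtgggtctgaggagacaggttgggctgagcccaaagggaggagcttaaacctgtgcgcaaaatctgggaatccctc
Fga held a STAT match from base 234 to 226 upstream, a C/EBP match from base 135 to 128 and an HNF1 match from base 46 to 38. Fgb held a C/EBP match from base 80 to 73, and the Fgg stretch held none of the 3. In the deposited annotation these 2 genes begin downstream of the RefSeq starts, Fgb at chr3:83049790 and Fgg at chr3:83007896. The bases between were not searched. Of the 31 members with a promoter in the RefSeq table, 3 held the C/EBP letters (9.68%, beside 2.61% of 32851 promoters) and 2 the STAT letters (6.45%, beside 0.913%). A match describes letters and does not show that a factor binds there.

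WT saline livers had 3198 to 7716 CPM of Fga (median 3800), and without replicate 1, which had 7716, the highest was 4324. KO saline livers lay at 4220, 4270, 3688, 3384 and 4452 CPM. WT L-AC livers had 5753, 1581, 1871, 4520, 5914 and 2065 CPM and KO L-AC livers 4195, 4938, 1460, 2655 and 2108 CPM. Replicates 1, 4 and 5 of WT L-AC and replicates 1 and 2 of KO L-AC thus lay within or above the range of the saline livers, while the others lay below all saline livers.

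Fgb and Fgg were highest in the same 3 WT L-AC livers. In WT L-AC livers Fgb had 4241, 1900, 1695, 3258, 4967 and 1655 CPM and Fgg 3802, 1351, 1422, 2530, 4135 and 1266 CPM. The SD of log2 CPM among WT L-AC livers was 0.87 for Fga, 0.70 for Fgb and 0.78 for Fgg, at the 95.6, 92.5 and 94.2 percentile of all genes tested. It was 0.72, 0.67 and 0.69 among KO L-AC livers, at the 89.8, 88.0 and 88.9 percentile. Among saline livers it was 0.43, 0.47 and 0.45 in WT, at the 77.2, 79.9 and 79.0 percentile, and 0.17, 0.17 and 0.15 in KO, at the 41.8, 42.7 and 37.5 percentile. Serpinf2, the plasmin inhibitor, was as spread among KO L-AC livers, with an SD of 0.72 at the 89.9 percentile. The chains made up 20.6 to 48.4% of the 40 genes' reads in WT L-AC livers, 20.1 to 37.0% in KO L-AC livers, 23.4 to 37.9% in WT saline livers and 24.8 to 28.8% in KO saline livers.

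No chain was called. The change was -0.23 for Fga, -0.30 for Fgb and -0.38 for Fgg in WT livers (SE 0.29 to 0.31, adjusted p = 0.549, 0.39 and 0.298), and -0.38, -0.30 and -0.50 in KO livers (adjusted p = 0.391, 0.469 and 0.233). Without WT saline replicate 1 the WT values were -0.02, -0.08 and -0.16 (adjusted p = 0.955, 0.822 and 0.649). Apart from fibrinogen, the other 37 messages took 2.45 to 3.24% of reads in WT saline and 1.72 to 1.94% in WT L-AC livers, which did not overlap.

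The liver raises acute phase proteins, fibrinogen among them, in inflammation. Serpina3n, an acute phase serpin picked after its values were seen, had 1038, 483.0, 349.6, 781.6, 805.9 and 320.8 CPM in WT L-AC replicates 1 to 6 and 910.9, 1705, 254.5, 514.8 and 256.5 CPM in KO L-AC replicates 1 to 5. Its high livers were those with high fibrinogen. Hp, haptoglobin, was even in WT L-AC livers (1832 to 2685 CPM) and ran from 1118 to 7051 CPM in KO L-AC livers, the highest in replicate 2, where fibrinogen was also high. Saa1, serum amyloid A, was high in WT L-AC replicates 1 and 2 (714.6 and 781.0 CPM) and at 22.46 to 80.17 CPM in the other 4, so it did not follow fibrinogen there. KO L-AC replicates 1 to 5 had 1635, 4116, 40.32, 33.67 and 31.98 CPM of Saa1, so there it was high in the livers with high fibrinogen. None of the 3 was called (adjusted p = 0.881, 0.0849 and 0.669 in WT livers). What part an acute phase response has in the spread of fibrinogen was not tested.

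**Figure D3:**
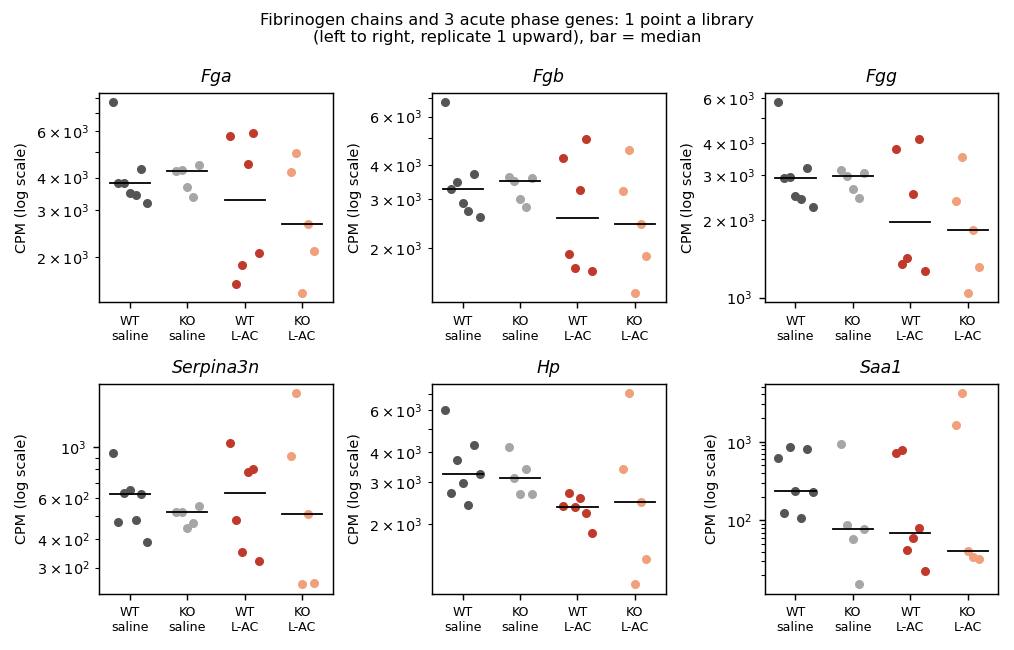
CPM (log axis) of the fibrinogen chains Fga, Fgb and Fgg and of the acute phase genes Serpina3n, Hp and Saa1 in each liver, replicates from left to right within a group, with a bar at the group median. Fga in WT L-AC livers is split between 1581 to 2065 CPM and 4520 to 5914 CPM, and Serpina3n is highest in the same livers.

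F13b, the carrier subunit of factor XIII, which cross-links fibrin, fell in both genotypes. Its level was 139.1 to 201.1 CPM in WT saline and 78.84 to 119.2 CPM in WT L-AC livers. The fall was 0.86 in WT and 0.93 in KO livers (adjusted p = 2.24e-07 and 5.78e-07), with no overlap in either.

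The anticoagulants held both the largest fall and the largest rise among the 40 genes. Both genes concerned lie on chromosome 16, Serpind1 at chr16:17331371-17343572 and Pros1 at chr16:62854334-62929340 (mm10). Their promoters are shown for that contrast, as the 250 bases upstream of the RefSeq start (GRCm38.p6), for Serpind1 at chr16:17331121-17331370 and Pros1 at chr16:62854057-62854306, both on the plus strand. Capitals mark the match to TTCCNGGAA.
Serpind1: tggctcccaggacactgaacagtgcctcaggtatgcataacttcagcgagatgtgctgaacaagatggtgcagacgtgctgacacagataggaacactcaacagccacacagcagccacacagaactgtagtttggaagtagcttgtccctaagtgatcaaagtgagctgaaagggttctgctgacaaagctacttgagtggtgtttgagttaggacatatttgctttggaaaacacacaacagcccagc
Pros1: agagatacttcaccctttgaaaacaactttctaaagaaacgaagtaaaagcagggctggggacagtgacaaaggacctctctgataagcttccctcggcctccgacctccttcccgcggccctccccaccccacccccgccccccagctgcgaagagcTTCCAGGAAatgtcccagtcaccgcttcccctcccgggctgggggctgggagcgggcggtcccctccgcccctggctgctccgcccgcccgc
Pros1 held the STAT letters from base 92 to 84 upstream. Serpind1 held none of the 5 motifs searched on both strands, which were the 3 above, CAAAGTCCA for HNF4 and the TATA box.

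Serpind1 encodes heparin cofactor II, a serpin that inhibits thrombin. It had 324.7 to 422.5 CPM (median 379.5) in WT saline and 28.28 to 90.79 CPM (median 47.57) in WT L-AC livers. KO livers had 414.3, 388.3, 389.6, 414.0 and 430.1 CPM on saline and 28.62, 69.32, 46.43, 97.09 and 49.48 CPM on L-AC. The saline livers were alike and the L-AC livers all lay far lower, spread from 28.28 to 97.09 CPM. The fall was 7.47-fold in WT (log2 -2.90, SE 0.25, adjusted p = 4.68e-09) and 7.0-fold in KO livers (log2 -2.81, SE 0.28, adjusted p = 4.77e-08).

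Pros1 encodes protein S, the cofactor of activated protein C. WT saline livers had 45.85 to 84.41 CPM (median 55.47), with 84.41 in replicate 1 and at most 58.1 in the other 6. WT L-AC livers had 78.87 to 167.7 CPM (median 124.6). KO livers had 53.3, 49.73, 54.45, 60.07 and 49.84 CPM on saline and 181.9, 73.85, 97.28, 83.4 and 121.6 CPM on L-AC. Every L-AC liver was above every saline liver in KO mice, and in WT mice the exception was saline replicate 1. Pros1 rose 2.16-fold in WT (log2 1.11, SE 0.19, adjusted p = 3.25e-05) and 2.09-fold in KO livers (log2 1.06, SE 0.21, adjusted p = 0.000285).

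Its partner Proc, protein C, moved the other way. Proc fell by 0.95 in WT and 1.05 in KO livers (adjusted p = 6.38e-09 and 1.4e-08), from 486.0 to 613.6 CPM in WT saline to 221.6 to 302.8 CPM in WT L-AC livers. Serpinc1, antithrombin, the main inhibitor of thrombin and factor X, fell by 0.62 and 0.72 (adjusted p = 2.7e-05 and 2.47e-05). It ran from 1752 to 2043 CPM on saline and from 968.4 to 1450 CPM on L-AC in WT livers.

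**Figure D4:**
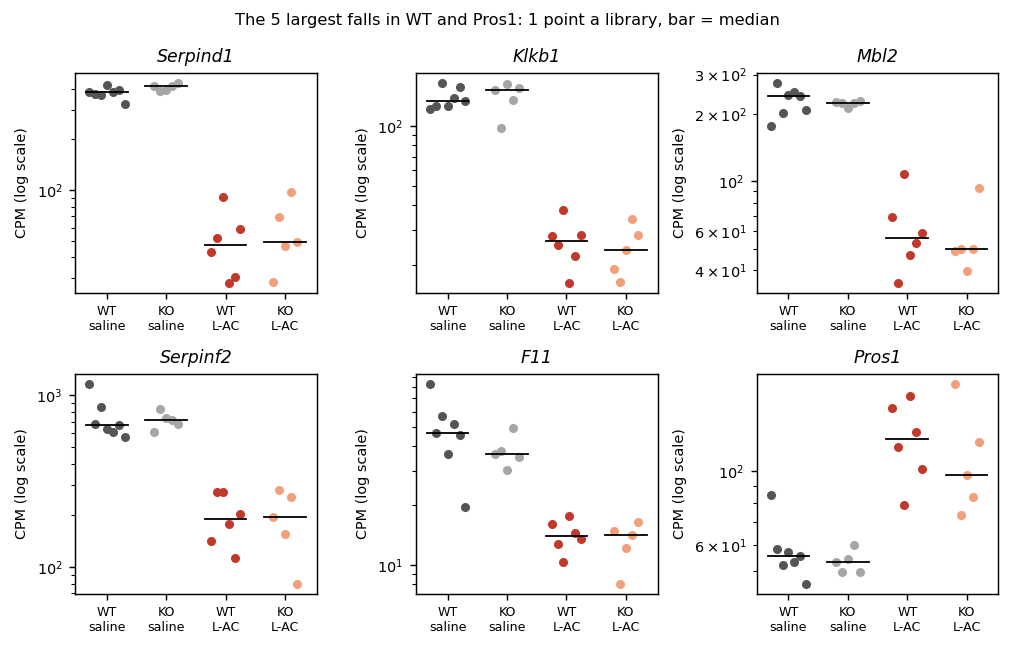
CPM (log axis) of Serpind1, Klkb1, Mbl2, Serpinf2 and F11, the 5 genes that fell most in WT livers, and of Pros1, in each liver, with a bar at the group median. The L-AC points lie below all saline points of the same genotype in the first 5 panels, and above them for Pros1 except for WT saline replicate 1 at 84.41 CPM.

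Vitamin K dependent proteins carry glutamates modified in the liver by the carboxylase Ggcx, which needs vitamin K reduced by Vkorc1. Of the 6 vitamin K dependent members, F2, F7, F9, F10 and Proc fell in WT livers and Pros1 rose, and in KO livers the directions were the same with F9 not called. Proz, protein Z, a further protein of this kind outside the 40, fell by 1.91 and 2.05 (adjusted p = 5.36e-10 and 1.59e-09). In the list of 9 genes for the vitamin K cycle and the export and processing of factors, 4 rose and 4 fell in WT livers. That is 44.4% each way, beside 26.6% of all genes higher and 26.7% lower. In KO livers 4 rose (44.4%, beside 25.2% of all genes) and 3 fell (33.3%, beside 23.6%). Ggcx fell by 1.09 and 1.08 (adjusted p = 7.53e-09 and 6.85e-08), and Vkorc1 by 1.21 and 1.29 (adjusted p = 2.44e-06 and 6.33e-06). Vkorc1l1, a relative of Vkorc1, rose by 0.91 and 1.01 (adjusted p = 3.54e-09 and 9.77e-09), and Pcsk5, a proprotein convertase, by 0.66 and 0.32 (adjusted p = 3.82e-06 and 0.0168).

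Both fibrinolysis genes fell. Plg, plasminogen, the precursor of plasmin, ran from 2187 to 3034 CPM in WT saline and from 1129 to 1419 CPM in WT L-AC livers, and fell 2-fold in both genotypes (adjusted p = 1.11e-07 and 7.48e-07). Serpinf2, alpha-2-antiplasmin, inhibits plasmin. Its level was 574.3 to 1161 CPM (median 675.3) in WT saline and 112.5 to 272.0 CPM (median 190.7) in WT L-AC livers. KO livers had 610.0, 834.3, 739.3, 722.4 and 676.5 CPM on saline and 194.1, 279.2, 156.0, 257.1 and 79.8 CPM on L-AC. The fall of 1.92 in WT and 1.89 in KO livers (adjusted p = 1.4e-06 and 8.88e-06) was thus almost 2 log2 steps for the inhibitor, beside 1.0 for plasminogen.

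Among 21 tested genes of coagulation and fibrinolysis outside the 40, 9 fell (42.9%) and 6 rose (28.6%) in WT livers. Of all genes 26.7% fell and 26.6% rose there, so the share of rises was near that of all genes. The same 15 directions were called in KO livers (9 lower and 6 higher in both). In all, 7 rose in KO livers (33.3%, beside 25.2% of all genes). Hrg, histidine-rich glycoprotein, fell by 0.87 and 0.88 (adjusted p = 1.49e-06 and 7.39e-06), and Hgfac, a plasma serine protease that activates hepatocyte growth factor, by 0.74 and 0.79 (adjusted p = 2.99e-06 and 7.88e-06). S100a10, which with annexin A2 binds plasminogen at cell surfaces, rose by 1.33 and 1.74 (adjusted p = 4.32e-06 and 1.23e-06). F3 (tissue factor), Plaur (the urokinase receptor), Thbd (thrombomodulin) and Anxa2 (annexin A2) also rose, by 1.03 to 1.86 in WT livers. These 4 are named here as proteins of the cell surface, a choice made after their values were seen.

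The genes of the C1 complex and the classical pathway fell in 6 of 6 cases in WT livers and in 3 of 6 in KO livers. C1ra, a protease of C1, fell by 0.63 and 0.87 (adjusted p = 6.95e-06 and 6.99e-07), and its copy C1rb makes the assignment of reads uncertain. C2, the protease of the classical C3 convertase, fell by 0.62 and 0.77 (adjusted p = 5.74e-05 and 2.63e-05). C4b, the other part of that convertase, ran from 1683 to 2304 CPM in WT saline and from 914.9 to 1626 CPM in WT L-AC livers, and fell by 0.49 and 0.60 (adjusted p = 0.00245 and 0.00162). Reads of C4b and of its near-identical neighbour C4a, which fell by 0.58 in both, cannot be kept apart with certainty. None of these 3 had overlapping groups.

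The 3 chains of C1q, the recognition unit of C1, lie within one cluster on chromosome 4 and followed one another. C1qa had 12.05, 9.27, 15.92, 21.64, 10.99, 29.8 and 31.98 CPM in WT saline replicates 1 to 7 and 15.83, 12.76, 15.84, 8.239, 7.596 and 8.876 CPM in WT L-AC replicates 1 to 6. KO livers had 15.39, 22.35, 13.66, 14.68 and 18.74 CPM on saline and 13.75, 8.613, 15.91, 8.15 and 12.04 CPM on L-AC. The groups overlapped in both genotypes, with WT saline replicates 6 and 7 the highest of all livers. C1qa, C1qb and C1qc fell by 0.71, 0.71 and 0.66 in WT livers (SE 0.27 to 0.28, adjusted p = 0.0313, 0.0346 and 0.0413). In KO livers the changes of -0.53, -0.69 and -0.58 were not called (adjusted p = 0.156, 0.0732 and 0.116).

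The C1q calls in WT livers depended on single livers and on the fit. Leaving out WT saline replicate 4, 6 or 7 or WT L-AC replicate 4, 5 or 6 ended the call of each chain, and for C1qc also WT L-AC replicate 2. The adjusted p then reached at most 0.0939 for C1qa, 0.115 for C1qb and 0.127 for C1qc, each without WT saline replicate 7. The 3 calls were also lost with library totals alone and in a fit of the WT groups alone, and those of C1qb and C1qc with limma-voom (adjusted p = 0.0503 to 0.0676 over these). In KO livers C1qb was called without KO L-AC replicate 3 or WT saline replicate 7 (adjusted p = 0.0412 to 0.0466). C1qb (adjusted p = 0.0296) and C1qa (adjusted p = 0.0407) were also called there in a fit of the KO groups alone, and C1qb with DESeq2 (adjusted p = 0.0496).

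Most macrophage markers were lower under L-AC, as the C1q chains were. Of 12 markers of Kupffer cells and macrophages, 8 fell (66.7%, beside 26.7% of all genes) and 1 rose in WT livers. In KO livers 7 of these 8 fell (58.3% of the 12, beside 23.6% of all genes). Their sum in WT livers was 85.34 to 290.4 CPM (median 105.6) on saline and 68.64 to 127.1 CPM (median 91.41) on L-AC. In KO livers the sum was 109.8 to 225.3 CPM (median 137.6) on saline and 57.12 to 181.9 CPM (median 96.22) on L-AC. None of the 12 was at 0. Clec4f, a Kupffer cell lectin receptor, had 54.95 and 76.83 CPM in WT saline replicates 6 and 7 and 21.23 to 44.53 CPM in the other 5, the same order of livers at the top as for C1qa. Csf1r, the receptor that macrophages need to survive, fell by 0.97 and 0.98 (adjusted p = 0.01 and 0.0224). Cd68, a lysosomal protein of macrophages, rose 2.83-fold and 4.83-fold (adjusted p = 0.00342 and 0.000386), unlike the 8 that fell. Without KO L-AC replicate 3, which had 66.04 CPM beside 7.292 to 17.87 in the other 4, the KO rise was 2.47-fold (adjusted p = 0.00186). The KO call of Csf1r was lost without KO saline replicate 2 or KO L-AC replicate 2 or 4 (adjusted p up to 0.0562). The part of macrophage content in the C1q result was not tested.

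**Figure D5:**
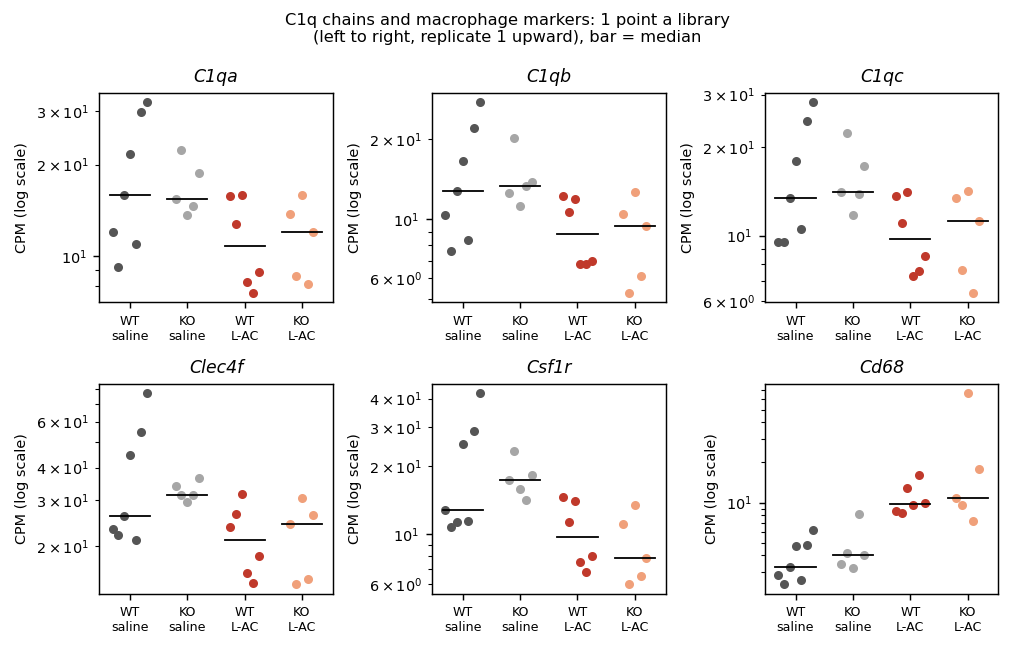
CPM (log axis) of the C1q chains C1qa, C1qb and C1qc and of the macrophage markers Clec4f, Csf1r and Cd68 in each liver, replicates from left to right within a group, with a bar at the group median. WT saline replicates 6 and 7 are the highest of their group for the chains and for Clec4f and Csf1r, and Cd68 is higher in L-AC livers (7.292 to 66.04 CPM) than in most saline livers (2.434 to 8.2 CPM).

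In the lectin pathway both sugar-binding proteins fell in both genotypes. Mbl2, mannose-binding lectin C, had 176.9 to 274.5 CPM (median 240.4) in WT saline and 35.15 to 107.2 CPM (median 55.94) in WT L-AC livers. KO livers had 225.4, 223.1, 212.0, 224.0 and 228.7 CPM on saline and 48.88, 49.68, 39.74, 49.51 and 93.66 CPM on L-AC. No groups overlapped, and the KO L-AC livers were alike but for replicate 5. Mbl2 fell 3.70-fold in WT and 3.95-fold in KO livers (adjusted p = 1.54e-07 and 5.18e-07).

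Mbl1, mannose-binding lectin A, fell by 1.13 in WT livers (adjusted p = 1.36e-05), where groups did not overlap. In KO livers it fell by 0.78 (adjusted p = 0.00227), with L-AC replicate 2 at 143.1 CPM inside the saline range of 128.7 to 170.4 CPM. Masp1, the protease that starts the lectin cascade, rose by 0.35 in WT livers (adjusted p = 0.0364), with saline livers at 38.71 to 48.15 CPM and L-AC livers at 45.78 to 64.36 CPM. That call was lost without WT saline replicate 2, 3, 6 or 7 or WT L-AC replicate 4, 5 or 6 (adjusted p up to 0.093), and in KO livers the change of 0.14 was not called (adjusted p = 0.488).

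Masp2, which cleaves C4 and C2, is counted lower, by 0.36 in WT and 0.37 in KO livers (adjusted p = 0.000689 and 0.00152). Of its 3217 exon bases, 1798 overlap Tardbp, a gene on the opposite strand, and the counting ignored strand and gave a shared read to both. Reads of the pair cannot be told apart. Tardbp ran from 203.7 to 281.4 CPM in WT saline and from 204.2 to 258.7 CPM in WT L-AC livers.

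C3, from which every complement route proceeds, was the most abundant complement message. It had 6604 to 11970 CPM (median 8155) in WT saline and 5561 to 7015 CPM (median 6664) in WT L-AC livers. KO livers had 9329, 7548, 8146, 6624 and 8815 CPM on saline and 6729, 10130, 5624, 7552 and 4864 CPM on L-AC. The groups overlapped in both genotypes. C3 fell by 0.38 in WT livers (SE 0.15, adjusted p = 0.0406) and was lower by 1.16-fold in KO livers, not called (adjusted p = 0.317). The WT call was lost without any of 8 livers (saline replicates 1, 4, 6 and 7 and L-AC replicates 1, 3, 5 and 6), and without saline replicate 1 the change was -0.27 (adjusted p = 0.108). It was also lost with library totals alone and with no filter (adjusted p = 0.0608 to 0.0726).

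Cfb, factor B, the protease of the alternative C3 convertase, lies next to C2 on chromosome 17. It ran from 1046 to 1299 CPM in WT saline and from 659.6 to 827.5 CPM in WT L-AC livers, with no overlap. Its fall of 0.66 and 0.74 (adjusted p = 2.28e-06 and 2.9e-06) was larger than that of C3 in each genotype, a difference that was not itself tested.

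All 6 terminal complement genes fell in both genotypes. Hc encodes C5, the first component of the pore, and fell by 0.79 and 0.98 (adjusted p = 5.44e-06 and 2.35e-06), from 722.1 to 1154 CPM in WT saline to 457.3 to 563.5 CPM in WT L-AC livers. C6 fell by 0.77 in each genotype (adjusted p = 0.00573 and 0.0143), with overlap in both. KO saline replicate 2 had 69.23 CPM and KO L-AC replicate 5 had 152.8 CPM, and the KO call was lost in a fit of the KO groups alone (adjusted p = 0.0559). C9, which forms the ring of the pore, fell by 0.69 and 0.73 (adjusted p = 0.000554 and 0.00126).

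The 3 chains of C8 fell by unequal amounts. C8a ran from 494.8 to 854.3 CPM (median 686.5) in WT saline and from 231.6 to 321.0 CPM (median 273.6) in WT L-AC livers. In KO livers it had 783.6, 429.9, 593.6, 892.4 and 718.6 CPM on saline and 205.8, 265.0, 292.6, 298.5 and 345.5 CPM on L-AC, again apart. The log2 change was -1.32 for C8a, -0.97 for its chromosome 4 neighbour C8b and -0.58 for C8g in WT livers (adjusted p = 3.81e-07, 0.000267 and 0.0014). In KO livers it was -1.28, -0.87 and -0.54 (adjusted p = 3.41e-06, 0.00242 and 0.00705). The differences between chains were not tested.

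Both complement inhibitors in plasma fell as well. C4bp, the C4b-binding protein that disables the classical convertase, ran from 292.6 to 467.0 CPM in WT saline and from 149.4 to 269.3 CPM in WT L-AC livers. It fell by 1.16 and 1.10 (adjusted p = 1.48e-05 and 0.000124), with no overlap. Cfi, factor I, the protease that cleaves C3b and C4b, fell 1.87-fold and 2.0-fold (adjusted p = 3.3e-07 and 5.04e-07), also without overlap.

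C4bp, Hc and F13b are shown together since their promoters, with that of Fga, were the members' matches to GTTAATNAT of HNF1 (4 of 31, or 12.9%, beside 0.737% of 32851 promoters). In a first search with the motif 1 letter longer, 3 matched, beside 0.371% of promoters, without Fga, and the shorter form was taken after that. The stretches end at or before the first exon of the deposited annotation and run 5′ to 3′ on the gene's strand, for C4bp at chr1:130661619-130661718 (minus strand), F13b at chr1:139501607-139501706 (plus strand) and Hc at chr2:35061442-35061512 (minus strand), all GRCm38.p6. Capitals mark the match or its reverse complement.
C4bp: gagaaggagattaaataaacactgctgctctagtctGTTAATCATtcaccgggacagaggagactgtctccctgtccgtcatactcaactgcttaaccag
F13b: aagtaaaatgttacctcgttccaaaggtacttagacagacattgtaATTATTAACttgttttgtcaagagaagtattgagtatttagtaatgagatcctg
Hc: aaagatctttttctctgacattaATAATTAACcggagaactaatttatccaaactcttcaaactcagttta
The match began 64 bases upstream of the RefSeq start in C4bp, 54 in F13b and 77 in Hc. These 3 genes fell in both genotypes, and so did most members without the letters, while Fga was not called. The HNF4 letters were found in 0 of the 31 promoters, beside 0.384% of all. The letters TATAAA of the TATA box, which lies just upstream of a start where there is one, were in 2 promoters (6.45%, beside 12.4%). These began 239 bases upstream in Hc and 132 in Klkb1 (there on the other strand).

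Further complement genes were taken as a list of mostly plasma proteins and a list of receptors and membrane regulators. Of 20 tested complement genes outside the 40, 14 fell (70%, beside 26.7% of all genes) and 1 rose in WT livers. Their median there was -0.61. In KO livers 14 fell (70%, beside 23.6% of all genes) and 0 rose. Cpn2, a subunit of carboxypeptidase N, which trims the anaphylatoxins, fell by 0.75 and 0.69 (adjusted p = 7.47e-07 and 1.33e-05), and C1s1, a protease of C1, by 0.96 and 1.20 (adjusted p = 1.24e-06 and 4.07e-07). The 1 that rose was C7, named after its value was seen, by 0.89 in WT livers (adjusted p = 0.0263), while in KO livers its change of 0.48 was not called (adjusted p = 0.313). The WT call of C7 was lost without saline replicate 1, 2 or 3 or L-AC replicate 4 or 5 (adjusted p up to 0.106). Of 12 complement receptors and membrane regulators, 3 fell, 2 rose and 7 were not called in WT livers, and as many in KO livers. The 2 rises were called in both genotypes, but only 1 of the falls was, that of Vsig4. The 25% lower in WT livers is near the 26.7% of all genes, and a difference from the plasma list was not tested. Cd93 rose by 1.01 and 0.84 (adjusted p = 0.000569 and 0.00827), and Vsig4, a receptor for C3b on Kupffer cells, fell by 0.84 and 0.85 (adjusted p = 0.0157 and 0.0342). The KO calls were lost for Cd93 without KO L-AC replicate 5 (adjusted p = 0.0616) and for Vsig4 without KO saline replicate 1, 2 or 5 or KO L-AC replicate 2 or 4 (adjusted p up to 0.0889).

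Other plasma proteins had falls of similar size. Of 26 other plasma proteins made by the liver, 23 fell (88.5%, beside 26.7% of all genes) and 0 rose in WT livers. Their median of -0.69 there was the same as that of the 40. In KO livers 22 of them fell (84.6%, beside 23.6% of all genes). Serpina1c, an alpha-1-antitrypsin gene, fell 2.04-fold and 2.02-fold (adjusted p = 3.32e-08 and 2.85e-07), although reads of the near-identical Serpina1 genes cannot be kept apart with certainty. Pon1, paraoxonase, fell 2.05-fold and 2.11-fold (adjusted p = 2.07e-07 and 7.98e-07). Of 15 acute phase genes, 4 fell (26.7%), 1 rose (6.67%) and 10 were not called in WT livers (median -0.19). Of all genes 26.7% fell and 26.6% rose there. In KO livers 3 fell (20%), 4 rose (26.7%) and 8 were not called (median 0.57), beside 23.6% and 25.2% of all genes. The WT falls and the KO rises were thus near the share of all genes. None of the 15 was called in the interaction (median 0.73), with 3 at an unadjusted p under 0.05, beside 2.25% of all genes. Of acute phase genes viewed by liver, Serpina3n, Saa1, Hp and Lcn2 were each highest among KO L-AC livers in replicate 2. Lcn2 had 586.1 CPM there and 7.625 to 65.59 CPM in the other KO L-AC livers. The weight of that liver in the medians was not tested. Saa4 fell by 3.76 and 3.54 (adjusted p = 8.61e-09 and 1.12e-07), while Orm2, orosomucoid, rose by 0.95 and 2.70 (adjusted p = 0.0236 and 1.62e-05), the former not called without WT L-AC replicate 1 (adjusted p = 0.0557).

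Among 18 transcription factors of liver, 9 fell (50%) and 3 rose (16.7%) in WT livers, beside 26.7% and 26.6% of all genes. In KO livers 8 fell (44.4%) and 1 rose (5.56%), beside 23.6% and 25.2% of all genes. In both genotypes 7 were called lower and 1 higher. Cebpa, a C/EBP factor of mature hepatocytes, ran from 433.0 to 646.2 CPM in WT saline and from 125.7 to 226.3 CPM in WT L-AC livers, and fell by 1.59 and 1.41 (adjusted p = 2.55e-08 and 8.74e-07). Cebpd, another member of that family, rose by 1.36 and 0.94 (adjusted p = 9.84e-06 and 0.00232). Nr0b2, the small heterodimer partner, fell by 4.00 and 3.54 (adjusted p = 2.28e-06 and 3.64e-05, with -4.38 in KO livers without KO L-AC replicate 4) and Nr5a2 by 0.76 and 0.86 (adjusted p = 1.46e-05 and 1.89e-05). Whether any of these factors has a part in the falls of the 40 genes was not tested.

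No difference between KO and WT livers was detectable for these genes. Under saline 0 of 40 were called between KO and WT livers, beside 0.0141% of all genes, and 0 had an unadjusted p under 0.05, beside 1.86%. The differences ran from -0.35 (F11) to 0.15 (F5), with SE of 0.08 to 0.33. The intervals of 1.96 SE reached as far as -0.81 for F11 and 0.58 for Serpind1. For each gene, a difference within its own interval could not be seen. The median SE of the 40 was 0.15, so most intervals were narrower than those of these 2 genes. Under L-AC 0 of 40 were called, again beside 0.0141% of all genes, and 1 (F5, -0.31, unadjusted p = 0.0101, adjusted p = 0.878) was under 0.05 before adjustment, beside 4.53%. Averaged over treatments 0 were called, beside 0.0282%, and 0 were under 0.05 before adjustment, beside 3.79%. DESeq2 and limma-voom also called 0 of the 40 in each of these comparisons.

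The response to L-AC did not differ detectably between genotypes for any of the 40. The interaction called 0 genes in all (0%), under DESeq2 and limma-voom as well, with 320 genes (2.25%) at an unadjusted p under 0.05, 1 of them a member (F5). A member's response could differ within its interval, which for C1qa reached 0.98 and for Fga -1.08. Of the members that lie on the chromosome of Ehhadh, Kng1 is 1.27 Mb, Masp1 1.66 Mb, Serpind1 4.42 Mb and Pros1 41.07 Mb from it, and none of the 4 was called between genotypes.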

How the data were processed

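PolyA RNA of 23 livers was sequenced as 100-nucleotide single-end reads, per the labels' protocols. Reads were aligned with STAR 2.4.0 to mm10 (GRCm38), per the submitters' processing notes, and the deposited files hold raw counts per gene that the authors made with featureCounts 1.4.4, per the file headers, from exons of UCSC genes, with primary alignments, without strand and with a read counted for each gene it overlaps. From these counts, edgeR 4.0.16 (R 4.3.3) kept 14196 genes by filterByExpr (minimum count 10, minimum total 15), scaled libraries by TMM and fitted 1 mean per group over all 23 libraries with the quasi-likelihood test, two-sided, adjusted by Benjamini-Hochberg. CPM use the TMM-scaled library size, and TPM use the exon length in the files. An SE is the fold change divided by the square root of F. Replicates, each with its own title and age in the labels, were taken as separate animals and numbered in accession order, which pairs none of them, and none of the 56 pairs of libraries within a group agreed within sampling noise.

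The 40 members, the roles and the lists were chosen with earlier results of these data known, and the text names all members and, from each other list, up to 4 called genes with the smallest p in WT livers, besides genes said to be chosen later. A few further list genes are not reported here. The fits were tested on simulated data. Alternatives were DESeq2's size factors, library totals alone, DESeq2 1.42.0, limma-voom (limma 3.58.1), no filter, 1 CPM in 5 libraries, age as a covariate, fits restricted to the groups of a comparison, a threshold of 0.01 and each library left out. Promoters are RefSeq's (GRCm38.p6), which matched 31 of 40 members.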

Additional observations from a re-analysis of the deposited data

Results flagged for a closer look

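Of 160 sets of values tested (each of the 40 genes in each of the 4 groups), 10 held a library far from the others of its group by Dixon's criterion, where chance gives about 1 in 20. WT saline replicate 1 was far above its group for Fga (7716 CPM, others 3198 to 4324), Fgb (6768 CPM, others 2596 to 3711), Fgg (5774 CPM, others 2259 to 3197) and Pros1 (84.41 CPM, others 45.85 to 58.1). The same gene, Pros1, thereby had its sole overlap of saline and L-AC livers in that mouse. Among saline livers, C4bp was low in WT replicate 7 (292.6 CPM, others 405.4 to 467.0) and C6 was low in KO replicate 2 (69.23 CPM, others 156.0 to 199.4).

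Among WT L-AC livers, F7 was high in replicate 1 (52.12 CPM, others 33.86 to 39.55), F5 was low in replicate 4 (342.9 CPM, others 414.6 to 455.5) and C4b was low in replicate 2 (914.9 CPM, others 1344 to 1626). Mbl2 was high in KO L-AC replicate 5 (93.66 CPM, others 39.74 to 49.68). Each of these values stayed on its own side of the opposite treatment in that genotype for C4bp, F7, F5, C4b and Mbl2.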

How the results depend on the processing

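Of the 35 calls among the 40 genes in WT livers, 30 held under every alternative at an adjusted p under 0.05 and without any 1 library, as did 28 of the 29 calls in KO livers. The WT exceptions were C1qa, C1qb, C1qc, Masp1 and C3, and the KO exception was C6 when only the groups compared were fitted (adjusted p = 0.0559). No called value changed direction. With library totals alone the median of all genes moved to 0.06 in WT and 0.11 in KO livers and that of the members to -0.63 and -0.64, and the share of calls that were higher moved from 49.93% to 57.44% and from 51.57% to 63.6%. Leaving out 1 library gave 29 to 33 members lower and 1 to 2 higher in WT livers, and 28 to 29 lower in KO livers. At an adjusted p under 0.01, Masp1, C1qa, C1qb, C1qc and C3 were not called in WT livers, where 1 member stayed called higher. C6 was then not called in KO livers. Between genotypes, DESeq2 called 7 genes under saline, 15 under L-AC and 22 averaged over treatments, in place of 2, 2 and 4. A fit of only the groups compared called 5 under L-AC, and leaving out 1 library gave 2 to 5, 2 to 6 and 4 to 7 genes. None of these genes was a member, and the cause of the differences was not tested. No paired analysis was possible because replicate numbers follow accession order and pair no animals. Expression differences near the intervals given could not be resolved with 5 to 7 livers a group.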
